A study of Mus musculus with 10 samples.

Results

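The genes described here are 10 components and readouts of the bone morphogenetic protein (BMP) pathway, measured by RNA-seq in mouse basal cell carcinoma (BCC) cells. They are the target genes Id1, Id2 and Id3, the ligands Bmp2, Bmp4 and Bmp7, the receptor Bmpr1a, the signal transducers Smad1 and Smad5, and the antagonist Sostdc1. They were chosen by gene symbol from both deposited tables, with their RPKM differences from DMSO in both comparisons already known, among them the very low Sostdc1 with T-5224. Their differences are therefore given as a description with no p-value. All 10 were present among the 17658 genes kept in the SB431542 table and the 16719 kept in the T-5224 table. All 10 also reached the mean of 1 RPKM over a table that a gene needed to be tested, Sostdc1 in the T-5224 table through its DMSO libraries alone, as did 10842 and 10809 genes in all. RPKM is reads per kilobase of transcript per M mapped reads, so levels of different genes can be compared per length.

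ASZ001 is a single mouse BCC cell line, and every library came from it, kept in low serum for 24 h. One experiment compared 3 DMSO (vehicle) libraries with 3 libraries from cells given 10 µM SB431542, an inhibitor of the TGFβ type I receptor ALK5. The other compared 2 DMSO libraries with 2 from cells given 20 µM T-5224, an inhibitor of the AP-1 transcription factors. The DMSO libraries of the experiments are separate, and each inhibitor was compared only with its own.

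BMP ligands bind type I and type II receptor kinases, and the type I receptors phosphorylate SMAD1, SMAD5 and SMAD9, which enter the nucleus with SMAD4 and switch on target genes. The Id genes are the standard readout, and their products bind E proteins and keep them from activating differentiation genes. In skin, BMP signals restrain hair follicle growth and promote epidermal differentiation, and secreted antagonists limit where they act. SB431542 blocks the receptors ALK4, ALK5 and ALK7 and spares the BMP type I receptors, so the first comparison asks whether BMP output changes when TGFβ input is blocked. The second asks how the same genes stand when AP-1 is inhibited.

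Promoter sequences were taken from RefSeq (GRCm38.p6), where 6 of the 10 members had an entry. Id1, Bmp2, Bmp7 and Sostdc1 had none. Those of Id2 and Id3 are shown because these were the most changed of the 6 with T-5224. Each is the 250 bases before the annotated start, 5′ to 3′ on the gene's strand, at chr12:25096093-25096342 (minus strand) for Id2 and chr4:136143572-136143821 (plus strand) for Id3. Capitals mark matches to GGCGCC, a GC-rich element bound by SMAD1 and SMAD5, or to CAGAC, the short SMAD-binding element, on either strand.
Id2: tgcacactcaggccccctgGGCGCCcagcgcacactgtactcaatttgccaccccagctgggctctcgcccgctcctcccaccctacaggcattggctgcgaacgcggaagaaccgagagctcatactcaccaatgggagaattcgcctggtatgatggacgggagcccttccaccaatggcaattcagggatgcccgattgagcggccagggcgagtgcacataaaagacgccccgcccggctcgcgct
Id3: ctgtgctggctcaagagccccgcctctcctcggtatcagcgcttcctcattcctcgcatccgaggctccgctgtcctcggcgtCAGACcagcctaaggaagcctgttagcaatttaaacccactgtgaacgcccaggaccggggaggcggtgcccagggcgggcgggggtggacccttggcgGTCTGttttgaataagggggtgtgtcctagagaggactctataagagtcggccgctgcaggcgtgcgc
The Id2 window held 1 GGCGCC, 231 bases before the start. The Id3 window held CAGAC 167 bases before the start and its reverse complement 68 bases before it. The letters TGANTCA, the AP-1 family site, were in neither, nor in the other windows of the 6 members. Of 32851 promoters of the same length, 9.6% held GGCGCC, 42.2% held CAGAC and 6.7% held TGANTCA on either strand. These matches are a description of the letters only, and both windows had a GC content of 62.8%.

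The libraries held about 32.0 to 51.5 M reads, worked out from the spacing of low RPKM values. In the SB431542 table the library DMSO replicate 1 lay farther from its group than the others. The SD of its log2 differences from the mean of the other libraries of its group was 0.27, against 0.12 to 0.19. Results that turn on DMSO replicate 1 are given without it as well. The keratinocyte markers Krt5, Krt14, Krt17, Trp63, Itga6 and Itgb4 were all expressed. Their summed level was 10743 to 10941 RPKM with DMSO and 7457 to 7993 with SB431542, and 14816 to 15576 with DMSO and 2282 to 2388 with T-5224. The 3 keratin genes make up most of these sums. With SB431542 they fell, by 0.30 to 0.81 on the log2 scale, while Trp63, Itga6 and Itgb4 were at 0.10, 0.04 and 0.04 and did not pass, and with T-5224 all 6 fell at an adjusted p under 0.05 (limma). Of 6 fibroblast markers 1 (Dcn) reached a mean of 1 RPKM, and the summed level of that list was 2.45 to 2.63 RPKM with DMSO and 3.69 to 4.14 with SB431542, and 2.54 to 2.58 with DMSO and 2.60 to 2.82 with T-5224. Dcn rose by 0.68 and 0.35 on the log2 scale, so the sums follow that gene, and other listed markers went the other way. Below 1 RPKM and not tested, Col1a2 went from a mean of 0.12 to 0.036 RPKM with SB431542 and from 0.14 to 0.021 with T-5224. Pdgfra went from 0.16 to 0.095 and from 0.515 to 0.12. Col1a1 and Col3a1 were at or near 0, Col1a1 going from 0.094 to 0.039 with SB431542. Immune markers summed to at most 0.11 RPKM, with Ptprc at or near 0. Of the endothelial markers, Pecam1 fell from 5.23 to 6.57 RPKM to between 2.60 and 2.83 with SB431542 and from 10.7 to 11.8 to between 4.11 and 4.67 with T-5224, while Cdh5 and Tie1, where listed, were at or near 0. The part of these markers in the results was not tested. In bulk RNA, fewer cells of a type and less RNA per cell cannot be told apart.

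With SB431542 all 3 Id genes were modestly higher than with DMSO, by 1.30-fold to 1.43-fold, Bmp2 was 1.16-fold higher and Smad1 stood at 85.9% of its DMSO mean. The other members, Sostdc1 among them, overlapped between groups. With T-5224 the pattern was far larger and mostly in the opposite direction. Sostdc1 was 115-fold lower, Id2 21.8-fold, Id3 13.6-fold, Bmp2 4.18-fold and Id1 2.80-fold lower, while Bmp4 and Smad1 were higher and Smad5 overlapped.

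**Figure D1:**
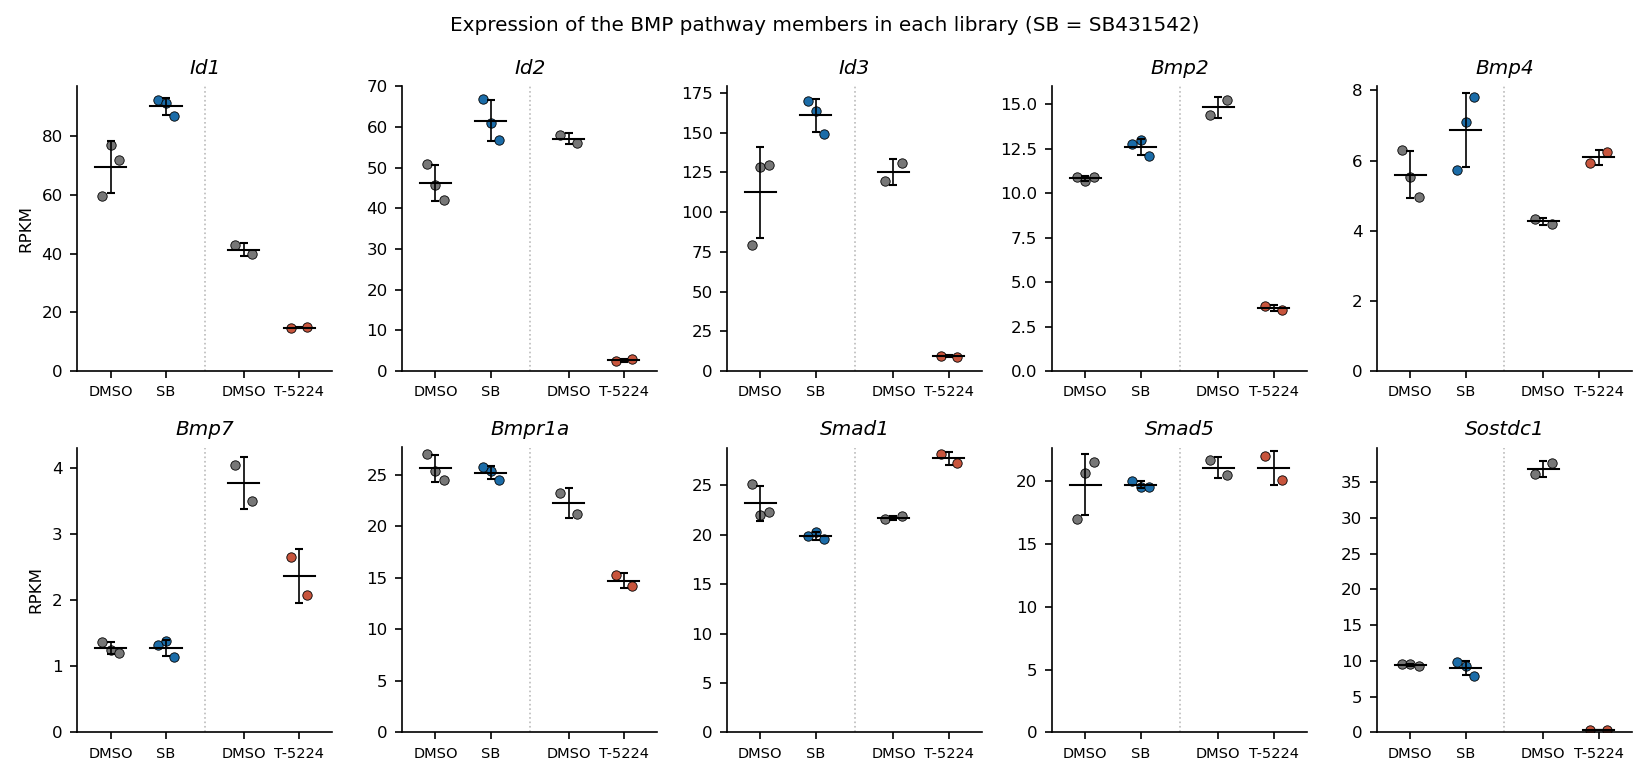
RPKM of each member (vertical axis, from 0, scale set per gene) in each library (points), with the group mean (line) and SD (bars), the SB431542 experiment left of the dotted line and the T-5224 experiment right of it. The 3 Id genes were higher with SB431542 in all 3 libraries than in any of their DMSO libraries and were lower with T-5224 in both, and Sostdc1 was at 0.352 and 0.287 RPKM with T-5224 and 36.1 and 37.7 with DMSO.

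ID1, ID2 and ID3 are the inhibitors of DNA binding, helix-loop-helix proteins that lack a DNA-binding region. Id1 (chr2:152561987-152563146, mm9, plus strand) measured 59.7, 76.8 and 71.7 RPKM in the DMSO libraries and 92.4, 91.3 and 86.8 in the SB431542 libraries. The groups did not overlap, and the lowest value with SB431542 was above the highest with DMSO. The mean went from 69.4 ± 8.78 (SD, n = 3) to 90.2 ± 3.01, a log2 difference of 0.38 ± 0.09 (SE, 95% interval 0.17 to 0.60) on the log2(RPKM + 0.5) scale.

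Id2 (chr12:25778666-25780957, mm9, minus strand) stood at 50.9, 45.7 and 42.0 RPKM with DMSO and at 66.8, 61.1 and 56.7 with SB431542, again with no overlap. Its log2 difference was 0.41 ± 0.09 (95% interval 0.20 to 0.62). Id3 (chr4:135699412-135701670, mm9, plus strand), the most abundant member, gave 79.5, 128 and 130.0 RPKM with DMSO and 169.7, 164 and 149 with SB431542. The groups were apart, but the low value of DMSO replicate 1 widened the spread, and the log2 difference was 0.55 ± 0.18 (95% interval 0.13 to 0.97). Without DMSO replicate 1 it was 0.31, and that of Id1 was 0.28.

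With T-5224 the Id genes were lower to unequal degrees. Id1 read 42.9 and 39.8 RPKM with DMSO and 14.6 and 14.8 with T-5224, so 35.7% of its DMSO mean was left and the log2 difference was -1.46 ± 0.06 (95% interval -1.59 to -1.32). Id2 read 58.0 and 56.1 RPKM with DMSO and 2.38 and 2.85 with T-5224, which is 4.58% of the DMSO mean and a log2 difference of -4.21 ± 0.08 (95% interval -4.39 to -4.03). Id3 measured 119.6 and 131 RPKM with DMSO and 9.68 and 8.80 with T-5224, which is 7.37% of the DMSO mean and a log2 difference of -3.69 ± 0.07 (95% interval -3.84 to -3.54). The order of levels with DMSO was Id3, Id2, Id1 in this table, and with T-5224 it was Id1, Id3, Id2. The lower Id2 values rested on about 156 and 179 reads, against 2359 and 2805 with DMSO.

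Bmp2 (chr2:133377895-133388621, mm9, plus strand), a ligand, read 10.9, 10.7 and 10.9 RPKM with DMSO and 12.8, 13.0 and 12.1 with SB431542. The groups did not overlap and differed by 0.21 ± 0.05 in log2 (95% interval 0.08 to 0.33). With T-5224 it stood at 3.68 and 3.41 RPKM against 14.4 and 15.3 with DMSO, a log2 difference of -1.92 ± 0.08 (95% interval -2.10 to -1.74).

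The other ligands went different ways. Bmp4 (chr14:47003195-47010344, mm9, minus strand) gave 6.29, 5.53 and 4.95 RPKM with DMSO and 5.73, 7.09 and 7.82 with SB431542, which overlapped, with a log2 difference of 0.27 ± 0.12 (95% interval -0.02 to 0.56) that was 0.35 without DMSO replicate 1. With T-5224 it was 5.94 and 6.24 RPKM against 4.34 and 4.20, higher by 0.47 ± 0.09 in log2 (95% interval 0.28 to 0.66), the largest upward difference of a member in that experiment. Bmp7 (chr2:172693513-172765822, mm9, minus strand), the lowest member in both DMSO groups, was 1.20 to 1.37 RPKM with DMSO and 1.15 to 1.38 with SB431542. These overlapped, and the log2 difference was 0.01 ± 0.10 (95% interval -0.22 to 0.23). With T-5224 Bmp7 read 2.66 and 2.08 RPKM against 4.05 and 3.50, a log2 difference of -0.58 ± 0.12 (95% interval -0.85 to -0.31).

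Bmpr1a (chr14:35223920-35316527, mm9, minus strand) encodes ALK3, a type I BMP receptor that SB431542 spares. Its level was 27.0, 25.3 and 24.5 RPKM with DMSO and 25.7, 25.4 and 24.5 with SB431542, and the log2 difference of -0.02 ± 0.06 had a 95% interval of -0.15 to 0.11. T-5224 libraries had 15.2 and 14.2 RPKM against 23.3 and 21.2 with DMSO, apart by -0.58 ± 0.07 in log2 (95% interval -0.73 to -0.42).

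SMAD1 and SMAD5 are the transducers downstream of that receptor. Smad1 (chr8:81862294-81923417, mm9, minus strand) was 25.2, 22.0 and 22.3 RPKM with DMSO and 19.8, 20.3 and 19.5 with SB431542, with every treated library below every DMSO library and a log2 difference of -0.21 ± 0.06 (95% interval -0.36 to -0.06) that was -0.15 without DMSO replicate 1. In the T-5224 experiment the sign was the opposite, with 28.2 and 27.3 RPKM against 21.6 and 21.9 with DMSO, or 0.35 ± 0.06 in log2 (95% interval 0.22 to 0.48). Smad5 (chr13:56804371-56843738, mm9, plus strand) overlapped in both experiments. Its libraries ranged from 17.0 to 21.5 RPKM with DMSO and 19.6 to 20.1 with SB431542, with a log2 difference of 0.01 ± 0.09 (95% interval -0.20 to 0.21). With T-5224 it read 22.0 and 20.1 RPKM against 21.7 and 20.5, and the 95% interval of the log2 difference was -0.15 to 0.15.

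Sostdc1 (chr12:37040756-37045039, mm9, plus strand) encodes sclerostin domain containing 1, also known as ectodin or Wise, a secreted antagonist of BMP that also acts on Wnt signaling in hair follicles and teeth. It read 9.63, 9.50 and 9.31 RPKM with DMSO and 9.81, 9.28 and 7.85 with SB431542. The groups overlapped, and the log2 difference was -0.08 ± 0.08 (95% interval -0.28 to 0.12). With T-5224 it was 0.352 and 0.287 RPKM against 36.1 and 37.7 with DMSO, so that 0.866% of the DMSO mean was left, or about 32 and 25 reads against 2026 and 2596. Its log2 difference was -5.51 ± 0.09 on the log2(RPKM + 0.5) scale (95% interval -5.71 to -5.32), which understates the change of a gene this low, and the log2 ratio of mean RPKM with no pseudocount was -6.85. The DMSO means of Sostdc1 were 9.48 RPKM in one table and 36.9 in the other, and since the tables were scaled separately this was not tested.

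**Figure D2:**
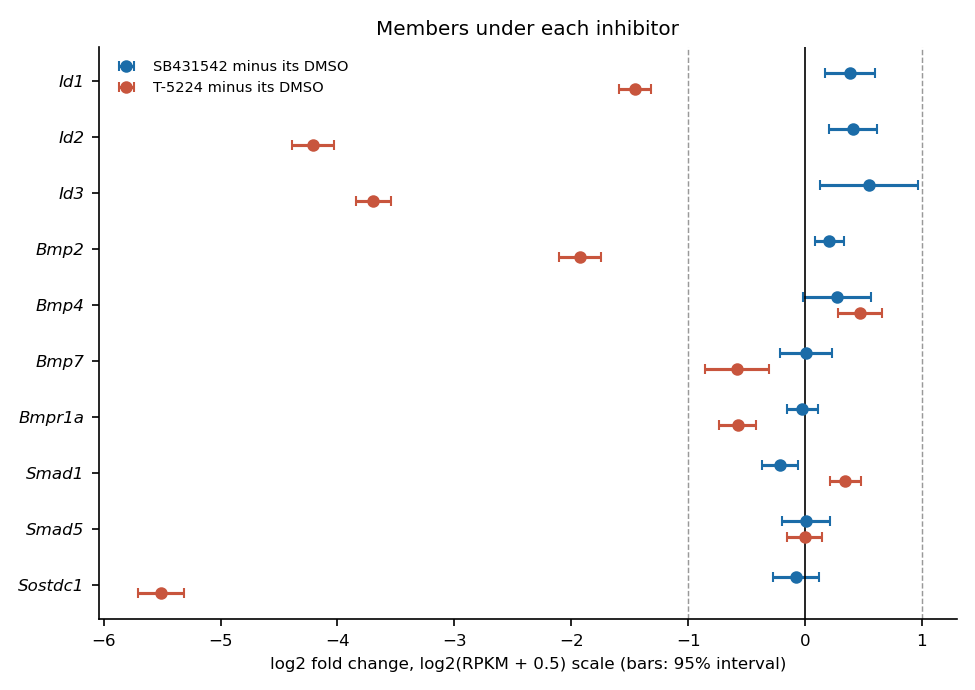
log2 difference (horizontal axis, log2(RPKM + 0.5) scale) between each inhibitor and its own DMSO libraries for the 10 members, with points for the estimate, bars for the 95% interval and dashed lines at a 2-fold change. All SB431542 values lie within the dashed lines, between -0.21 and 0.55, and 5 T-5224 values (Sostdc1, Id2, Id3, Bmp2 and Id1) lie beyond -1.

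The calling rule asked for more than a 2-fold change and for an adjusted p below 0.05 (limma, Benjamini-Hochberg over all genes tested). By this rule 0 of the 10 members were called with SB431542, none of them lying beyond 2-fold whatever the p, where 0.581% of all genes tested were called lower and 0.231% higher. When the fold limit was dropped, 3 members (Id1, Id2 and Bmp2) were higher and 0 lower, against 10.2% and 10.0% of all genes (limma, 4 higher and 1 lower at an unadjusted p under 0.05). Of the members 5 did not overlap between groups, as did 45.1% of all genes. Since the members were chosen with this comparison known, nothing is read from these counts. The count of 3 turned on single libraries, being 0 without SB431542 replicate 1 or without SB431542 replicate 2, 1 without SB431542 replicate 3 or without DMSO replicate 2, 2 without DMSO replicate 3 and 6 without DMSO replicate 1, where Id3, Bmp4 and Smad1 passed as well.

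With T-5224, 5 members were called lower and 0 higher, where 10.6% of all genes tested were called lower and 10.4% higher. Without the fold limit 7 were lower and 2 higher, against 39.4% and 40.3% of all genes, and 9 did not overlap between groups, against 89.7% of all genes. The members' place among all genes was uneven. Sostdc1 lay at percentile 0.028 of the log2 differences, Id2 at 0.093 and Id3 at 0.24, while Bmp7 and Bmpr1a lay at 21.7 and 22.0. With SB431542 Id3, Id2 and Id1 lay at percentiles 98.3, 96.0 and 95.2. The members were chosen with both comparisons known, and Sostdc1 was tested with T-5224 through its DMSO libraries alone. Nothing is therefore read from these counts and percentiles.

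**Figure D3:**
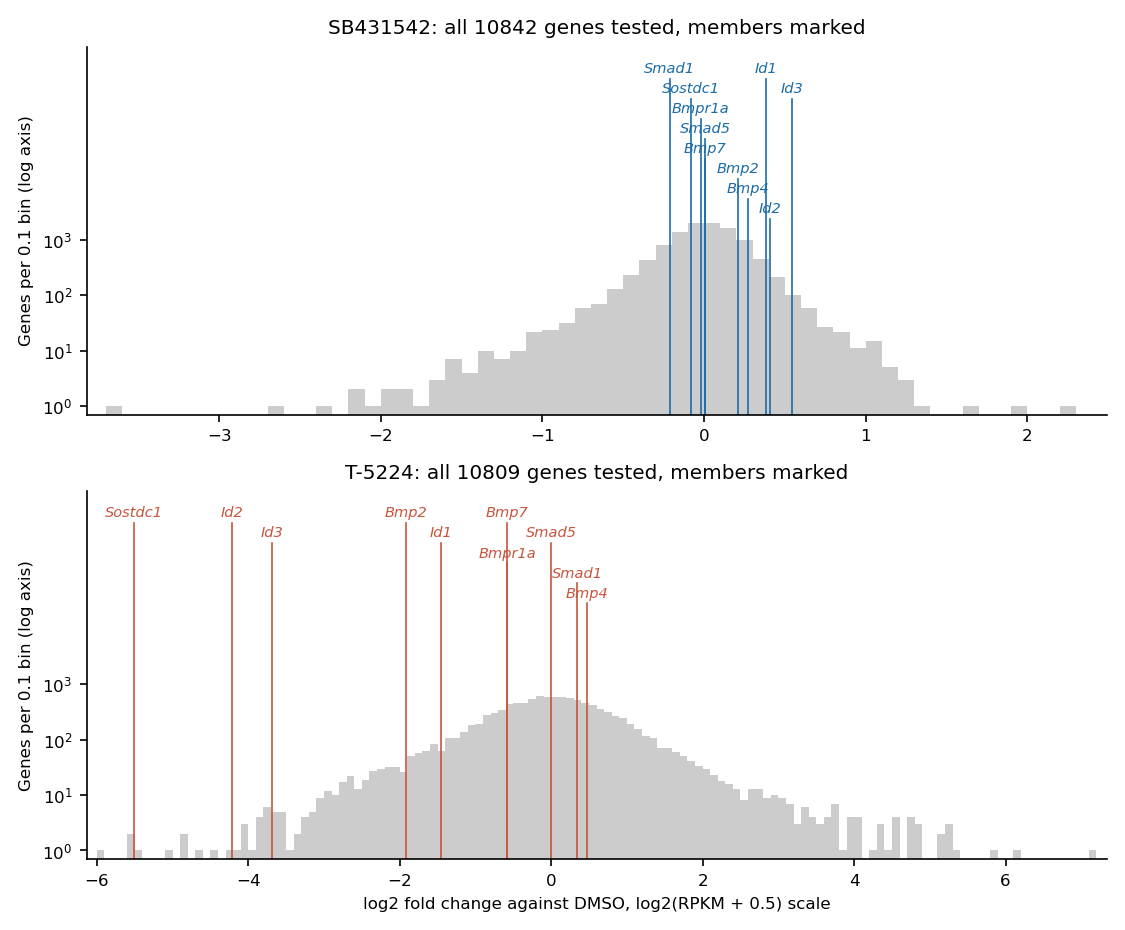
Number of genes (vertical axis, log scale, bins of 0.1) by log2 difference against DMSO (horizontal axis, ranges differ between panels) for all 10842 and 10809 genes tested, with a line for each member. With SB431542 the members lie between Smad1 (-0.21) and Id3 (0.55), and with T-5224 Sostdc1, Id2 and Id3 lie in the far left tail.

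Among DMSO libraries of the first experiment the members ranked Id3, Id1, Id2, Bmpr1a, Smad1, Smad5, Bmp2, Sostdc1, Bmp4 and Bmp7 by mean level, from 113 to 1.27 RPKM. Bmpr1a and Smad1 overlapped, and the other neighbors did not. In the second experiment the order was Id3, Id2, Id1, Sostdc1, Bmpr1a, Smad1, Smad5, Bmp2, Bmp4 and Bmp7, from 125 to 3.78 RPKM. There Bmpr1a overlapped with Smad1 and Smad1 with Smad5.

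Another 61 genes of the BMP pathway were followed by role, in lists that were also written with earlier results known and so are no independent evidence. With SB431542, 51 were listed and 33 tested. Of the 33, 11 fell and 0 rose by the adjusted p of limma alone, against 10.0% and 10.2% of all genes tested. Beyond 2-fold 2 fell, against 0.581% of all genes. At an unadjusted p under 0.05 the counts were 15 lower and 1 higher. Their median log2 difference was -0.17, beside 0.01 for all genes tested. The count of 11 was 16 without DMSO replicate 1 and 9 without DMSO replicate 3. It was 6 without DMSO replicate 2 or without SB431542 replicate 3, and 7 without SB431542 replicate 1 or without SB431542 replicate 2.

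Both genes beyond 2-fold act on TGFβ family signals at large. Fst (follistatin, which binds activin and some BMPs) fell from 74.4, 81.2 and 82.0 RPKM to 19.1, 20.2 and 23.4, a log2 change of -1.90 ± 0.08 (limma adjusted p = 3.42e-05). Skil (SnoN, a repressor of SMAD-driven transcription) fell from 7.64, 7.84 and 7.70 RPKM to 2.38, 2.39 and 2.62, a log2 change of -1.47 ± 0.07 (limma adjusted p = 3.54e-05).

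The other 9 that fell with SB431542 changed by less. Among receptors and co-receptors they were Acvr1 (ALK2, a BMP type I receptor), at -0.47 in log2, and Rgma, a BMP co-receptor, at -0.41. The inhibitory SMADs Smad7 and Smad6, which damp the pathway and are themselves target genes, fell by 0.80 and 0.52 on the log2 scale. Smad7, like Skil above, was also on the list of TGFβ target genes read as a check of the inhibitor. Antagonists were Fstl3 at -0.61 and the pseudoreceptor Bambi at -0.43. Ski, a SMAD corepressor, Bmp1, a protease that cleaves chordin, and the E protein gene Tcf12 changed by -0.17, -0.31 and -0.24.

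Among 13 target genes tested with SB431542, Id genes included, 2 (Id1 and Id2) had a higher level and 3 a lower one by the adjusted p alone, with a median log2 difference of 0.01. The 3 lower ones were Smad6, Smad7 and Bambi. Id3, Id4, Atoh8, Msx1, Msx2, Dlx3, Dlx5 and Hey1 passed in neither direction with all libraries in the fit. As a check of the inhibitor, TGFβ target genes were read as well. Skil and Smad7, counted above with the BMP pathway, were on this list too, and which input their fall reflects was not tested. Pmepa1, a negative feedback gene of TGFβ signaling, fell from 49.4, 45.9 and 43.0 RPKM to 3.21, 3.16 and 3.50 (log2 change -3.62 ± 0.07, limma adjusted p = 9.50e-07). Ctgf, a matricellular protein gene, fell from 21.9, 21.0 and 21.8 RPKM to 3.65, 3.72 and 4.53 (log2 change -2.31 ± 0.08, limma adjusted p = 2.50e-05). With T-5224 Pmepa1 and Ctgf also differed, by -1.35 and -2.26 in log2, while Smad7 rose by 0.34 and Skil, at -0.16, did not pass.

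With T-5224, 50 of the 61 genes were listed and 34 tested, 7 of them through the level of 1 group alone. Of the 34, 14 fell and 1 rose beyond 2-fold, against 10.6% and 10.4% of all genes tested. By the adjusted p alone 22 fell and 8 rose, against 39.4% and 40.3% of all genes. The median log2 difference was -0.54, beside 0.00 for all genes tested. Of 13 target genes tested, 10 were lower beyond 2-fold and 0 higher, with a median of -1.61, where 10.6% and 10.4% of all genes were called. Of these 10, 3 are the Id members, and 4 (Id4, Atoh8, Hey1 and Bambi) reached a mean of 1 RPKM only through DMSO libraries. Nothing is therefore read from the count or the median. The other 7 were Dlx3, Bambi, Id4, Smad6, Atoh8, Hey1 and Msx2.

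Dlx3, a homeobox gene of epidermal and hair differentiation, fell from 29.1 and 31.9 RPKM to 3.35 and 2.71 (log2 change -3.14 ± 0.09, limma adjusted p = 1.03e-10). Id4, the remaining Id gene, went from 3.16 and 3.22 RPKM to 0.302 and 0.351, a 9.77-fold lower mean (log2 change -2.16 ± 0.12 with the pseudocount, which understates it). Smad6 fell from 8.65 and 9.65 RPKM to 2.28 and 2.33 (log2 change -1.78 ± 0.09, limma adjusted p = 9.36e-09). Not all target genes were lower, since Smad7 and Dlx5 rose by 0.34 and 0.24 on the log2 scale and Msx1, at -0.13, did not pass.

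Of 9 antagonists tested with T-5224, 8 were lower by the adjusted p, where 39.4% of all genes were. Beyond 2-fold 6 were lower, of which Sostdc1 is 1, where 10.6% of all genes were. Of the 6, 4 (Sostdc1, Nbl1, Bambi and Fstl1) reached the mean of 1 RPKM only through their DMSO libraries. The list was also written with earlier results known, so nothing is read from these counts. Bambi is counted among the target genes too. Nbl1 (DAN, a secreted BMP antagonist) went from 10.1 and 11.8 RPKM to 0.995 and 0.879, a log2 difference of -2.99 ± 0.11. Fst fell from 63.6 and 63.2 RPKM to 9.64 and 9.75 (log2 change -2.65 ± 0.06, limma adjusted p = 1.11e-11). Bambi and Crim1 changed by -2.68 and -1.22. Fstl1 was at the edge of the 2-fold limit, going from 1.81 and 1.72 RPKM to 0.641 and 0.619. Dand5, a further secreted antagonist, rose by 0.49.

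Among 7 receptors and co-receptors tested, Rgma was the only one beyond 2-fold, at -1.37. Among 10 SMADs and regulators tested, Smad6 and Ski fell beyond 2-fold, Ski by 1.06 on the log2 scale. Bmp6, a ligand near 0 with DMSO at 0.145 and 0.270 RPKM, was at 2.15 and 1.91 with T-5224, a 9.78-fold higher mean (log2 difference 1.84 ± 0.15 with the pseudocount, which understates it), and it was tested only because its T-5224 libraries were high.

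The E proteins, the partners of ID proteins, were split with T-5224. Tcf4 fell by 1.19 and Tcf3 by 0.55 on the log2 scale, and Tcf12 rose by 0.35. Of the receptors that SB431542 blocks, Acvr1b (ALK4) fell by 1.73 on the log2 scale with T-5224 and Tgfbr1 (ALK5) was at 0.03 and did not pass. All 6 keratinocyte markers fell along with these genes with T-5224, from -0.59 for Trp63 to -3.35 for Krt5, and their part in the result was not tested.

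**Figure D4:**
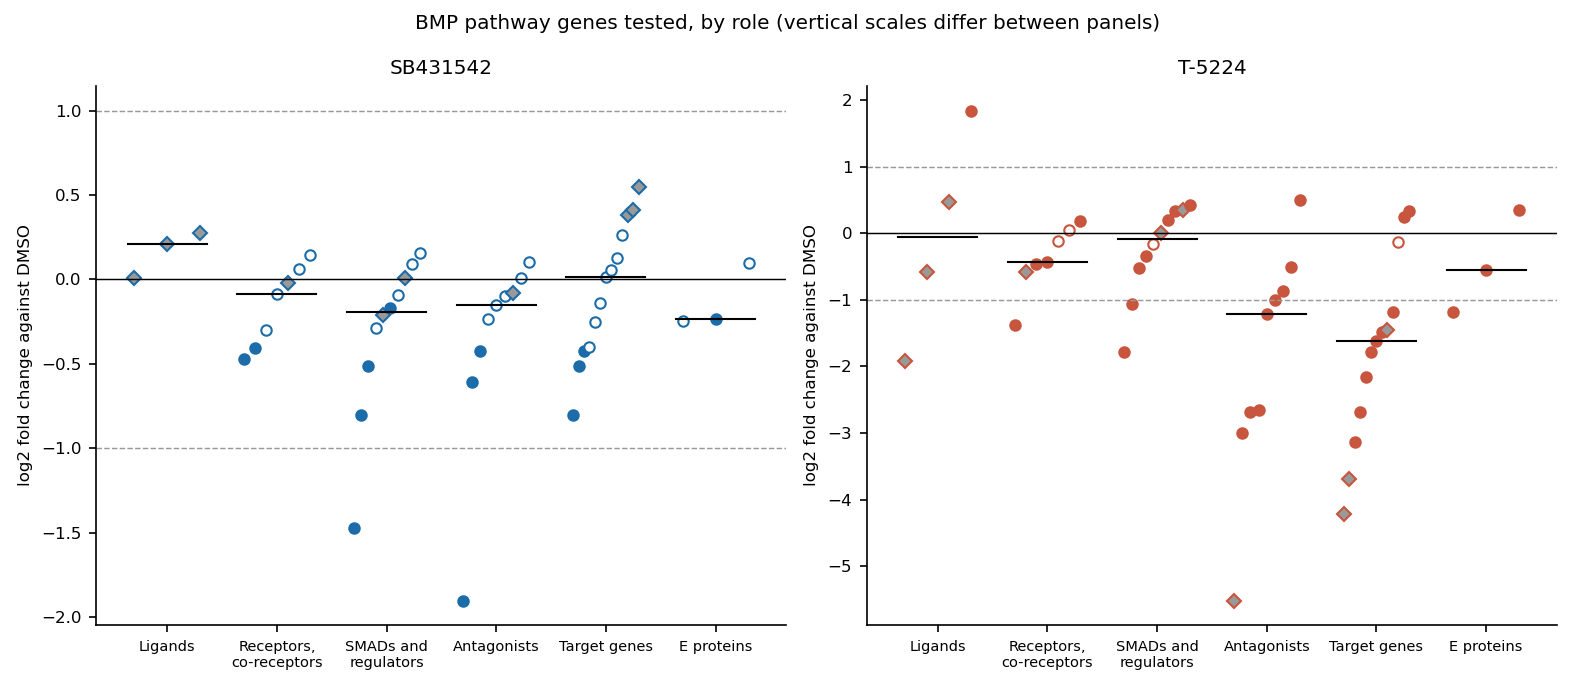
log2 difference against DMSO (vertical axis, scales differ between panels) of the BMP pathway genes tested, by role, with gray diamonds for members, filled circles for other genes at an adjusted p under 0.05, open circles for the rest, black lines for the median of each list and dashed lines at a 2-fold change. Some genes are in more than 1 role. With T-5224 the medians of target genes (-1.61) and antagonists (-1.22) were the lowest of the lists plotted. Of these, 4 target genes and 4 antagonists were tested only through the level of their DMSO libraries. The lists were also written with earlier results known, so nothing is read from this order.

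To find genes with a like pattern, the root mean square difference of log2(RPKM + 0.5), each library set against the DMSO mean of its table, was taken over the 10 libraries and 10462 genes tested in both tables. The nearest to Id1 were St3gal4 (0.08), Ier5l (0.08), Cnp (0.09), Mgst3 (0.09) and Ccdc167 (0.09). The nearest to Sostdc1 were farther away, namely Gas1 (0.32), Krt15 (0.45), Adamtsl4 (0.47), Fam180a (0.48) and Prelp (0.51). Gas1, a membrane protein that binds Hedgehog ligands, differed by -4.84 in log2 with T-5224 and by -0.04 with SB431542. Krt15, a keratin of basal and hair follicle stem cells, differed by -4.80 with T-5224 and by 0.49 with SB431542. Adamtsl4, Fam180a and Prelp differed by -5.55, -5.41 and -4.40 with T-5224. With SB431542 they differed by -0.92, -0.93 and -0.18, against -0.08 for Sostdc1.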

How the data were processed

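RNA-seq values of the ASZ001 line came as 2 tables, for SB431542 (3 DMSO and 3 treated libraries) and T-5224 (2 and 2). The methods describe 2 or 3 biological replicates of 1 cell line. The authors prepared stranded mRNA libraries, aligned reads to mm9 with TopHat and made the deposited RPKM values with HOMER. The study's software list gives their versions. Whether counting used strand is not given in the sources used here. Replicates 1 and 2 of DMSO in the T-5224 experiment, as its columns number them, are 4 and 5 in the labels. All 10 columns of values were used and 0 left out.

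Rows whose symbol had become a date (22 and 23) were left out. Genes with a mean of at least 1 RPKM in a table were tested with limma (version 3.58.1, under R 4.3.3) after taking log2(RPKM + 0.5), allowing for a trend of variance with mean and adjusting p-values by Benjamini-Hochberg, each inhibitor against the DMSO libraries of its own table. The values are not counts, so no count test was run. The authors' methods used DESeq2 with the same fold limit. The script was tested on simulated data. Members were named by symbol, and other pathway genes where called in either experiment or where 5 or fewer of a list were tested. A gene of the TGFβ target list is not reported here. The 5 nearest genes to Id1 and to Sostdc1 were named by likeness. Members and lists were chosen with earlier results of these data known. Positions are from GENCODE on NCBIM37, the assembly of mm9, and promoters from RefSeq on GRCm38.p6. Read totals came from genes under 250 bases with up to 6 reads, whose values fell on a ladder of whole reads, to 0.05 of a read. The spread between replicates, not counting error, sets the standard errors. Alternatives were pseudocounts of 0.1 and 1, other filters, median centring, quantile normalization, no trend, no fold limit, a ratio with no pseudocount, the replicate block and leaving out each library.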

Additional observations from a re-analysis of the deposited data

How the results depend on the processing

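The 10 members' log2 differences moved by less than the replicate spread in 264 recomputations and by more in 14, with 0 reversals of a called value. A filter, the variance trend and the replicate block cannot move a gene's log2 difference, so those recomputations were among the 264 whatever the data. Leaving out 1 library cannot move the difference beyond that spread, the residual SD of the main fit. Those recomputations were therefore also among the 264 whatever the data. The uncalled differences of Bmp7, Bmpr1a, Smad5 and Sostdc1 with SB431542, and of Smad5 with T-5224, changed sign when single libraries were left out. With no limit on the fold change the calls went from 0 to 3 (members), 2 to 11 (other pathway genes) and 88 to 2192 (all genes) with SB431542, and from 5 to 9, 15 to 30 and 2265 to 8616 with T-5224. A mean of at least 5 RPKM, which tests fewer genes, gave 51 calls among all genes with SB431542 and 8 among the other pathway genes with T-5224. At an adjusted p under 0.05 with SB431542, leaving out each library gave 0 to 6 members and 6 to 16 other pathway genes. Same-numbered DMSO and SB431542 libraries did not deviate together (r = -0.15, 0.15 and -0.09), so the numbers were not taken as pairs, and the replicate block gave 2 members and 7 other pathway genes, against 3 and 11 without it. The labels give the T-5224 groups no shared numbers, but the columns number both 1 and 2. By these numbers the libraries did not deviate together either (r = 0.06). A replicate block, added after the data were seen, gave 5 members and 15 other pathway genes called, as without it. The causes were not tested. For Sostdc1 with T-5224 the pseudocount sets the size, from -6.85 to -4.84 in log2. Groups of 2 or 3 libraries of 1 cell line limit precision, and where 1 library was left the fit assumed that it varies like the other group.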
